A study of Bos taurus with 24 samples.

Results

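Maternal mRNA storage and repression proteins were described here as a set of 10 genes, chosen by symbol: *ZAR1*, *ZAR1L*, *CPEB1*, *CPEB4*, *YBX2*, *DAZL*, *PATL2*, *LSM14B*, *DDX6* and *ZFP36L2*. Of these, 6 matched 1 row each of the expression table (17071 rows), and all 6 were expressed highly enough to be tested. *ZAR1L*, *CPEB1*, *DAZL* and *LSM14B* matched no row by symbol and were not analysed here. A further 3276 rows carry an Ensembl ID alone and were not given names.

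The RNA of 24 single bovine oocytes at the metaphase II (MII) stage was measured with CEL-seq2, 12 siRNA injected and 12 non-injected. The injected oocytes (genotype label "scrambled siRNA injected") were denuded, that is stripped of cumulus cells, before injection at the germinal vesicle stage. They received a non-specific siRNA together with fluorescent dextran, and were kept for culture when they fluoresced. The non-injected oocytes (genotype label "wild type") were cultured alike. Both groups spent 16 h in roscovitine, an inhibitor of cyclin-dependent kinases that delays the resumption of meiosis, followed by 22 h in maturation medium, and were collected with a first polar body. Ovaries came from a slaughterhouse, and the sources used here give neither the age of the cows nor which oocytes share a donor. All p-values therefore refer to variation among these 24 oocytes. Needle, dextran and siRNA were always given together and cannot be told apart.

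CEL-seq2 primes cDNA at the poly(A) tail and tags each molecule with a unique molecular identifier (UMI). Values are RPM, reads scaled to a common library total after counting each UMI once, so genes can be compared by molecules without correction for transcript length. Each oocyte held 204285 to 382077 UMIs in the injected and 134080 to 415554 UMIs in the non-injected group, and 1 UMI was worth 2.27 to 7.35 RPM. The 13 measured oocyte markers were above 0 in all 24 oocytes and summed to 10353 to 12062 RPM in the injected group and to 10098 to 12119 RPM in the non-injected group. The 10 measured cumulus and granulosa markers summed to 99.97 to 196 RPM in the injected group and to 113 to 156 RPM in the non-injected group, mostly *HAS2* and *PTGS2*, above 0 in 24 oocytes (means 86.4 and 25.5 RPM), and *CYP19A1*, above 0 in 23 (15.8 RPM). *VCAN* was above 0 in 15 oocytes, *PTX3* in 9 and *AMH* in 2, and *FSHR*, *CYP11A1*, *FST* and *GREM1* in 1 each. *HAS2* was thus at a level like that of *DDX6* below, and *PTGS2* and *CYP19A1* at levels like those of *PATL2* and *ZFP36L2*. The part of these markers in the results below was not tested.

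A fully grown oocyte has stopped transcription and lives on mRNAs made earlier, which are kept stable but untranslated until meiosis resumes or the embryo needs them. Proteins of this set bind such mRNAs, hold them with short poly(A) tails in large ribonucleoprotein complexes, and release, polyadenylate or hand them over for decay in a set order during maturation. YBX2 (MSY2 in mouse) coats mRNA broadly, CPEB proteins recognise U-rich elements in the 3′ untranslated region, and ZFP36L2 recruits deadenylases to AU-rich elements. DDX6 and PATL2 belong to the repression and decapping machinery, and ZAR1 is a zinc-finger protein that in mouse is needed for the storage of maternal mRNA. An RPM value is relative to all RNA primed at poly(A) tails, and neither tail length nor protein was measured.

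The measured members spanned a broad range of expression. *YBX2* (ENSBTAG00000009126) was the highest at a mean of 1434 ± 319 RPM over the 24 oocytes (SD), rank 65 among the 16442 rows above 0. *ZAR1* (ENSBTAG00000004886) followed at 578 ± 195 RPM (rank 287) and *CPEB4* (ENSBTAG00000009995) at 236 ± 57.4 RPM (rank 893). *DDX6* (ENSBTAG00000009067) was at 83.9 ± 30.4 RPM (rank 2426), *PATL2* (ENSBTAG00000001558) at 22.2 ± 14.8 RPM (rank 5352) and *ZFP36L2* (ENSBTAG00000003553) at 14.4 ± 9.09 RPM (rank 6327). This order was kept by neighbouring genes in most single oocytes. *YBX2* exceeded *ZAR1* in 24 of 24 oocytes, *ZAR1* exceeded *CPEB4* in 22, *CPEB4* exceeded *DDX6* in 23 and *DDX6* exceeded *PATL2* in 23. *PATL2* and *ZFP36L2* did not differ beyond their spread, with *PATL2* the higher in 14 of 24 oocytes (9 of 12 injected and 5 of 12 non-injected). In the gene annotation of assembly ARS-UCD2.0 *ZAR1* overlaps *FRYL*, and *CPEB4* and *DDX6* each overlap 1 other locus. Only gene spans were compared, without strand or exons, and whether reads of these genes are shared was not tested.

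None of the 6 measured members passed the test between the groups (limma on log2(RPM + 5), adjusted p under 0.05 over 7256 genes and a fold change over 1.2), where 0.221% of all tested genes did (0.0827% higher and 0.138% lower in injected oocytes). At an unadjusted p under 0.05 there were 2, *YBX2* and *ZFP36L2*, both with lower values in injected oocytes, against 12.4% of all tested genes in either direction and 5.72% with lower values. On the UMI counts recovered from the RPM values, DESeq2 called 1 of the 4 members to which it gave an adjusted p (*YBX2*, lower), against 2.86% of all genes with one in either direction and 1.88% lower. edgeR called 0 of 4, against 1.17%. The log2 fold change of siRNA injected over non-injected oocytes was negative for 4 members and positive for 2, with a median of -0.21, beside 0.02 over all tested genes. No member, and 0% of the 7256 tested genes, had values that did not overlap between the groups.

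**Figure D1:**
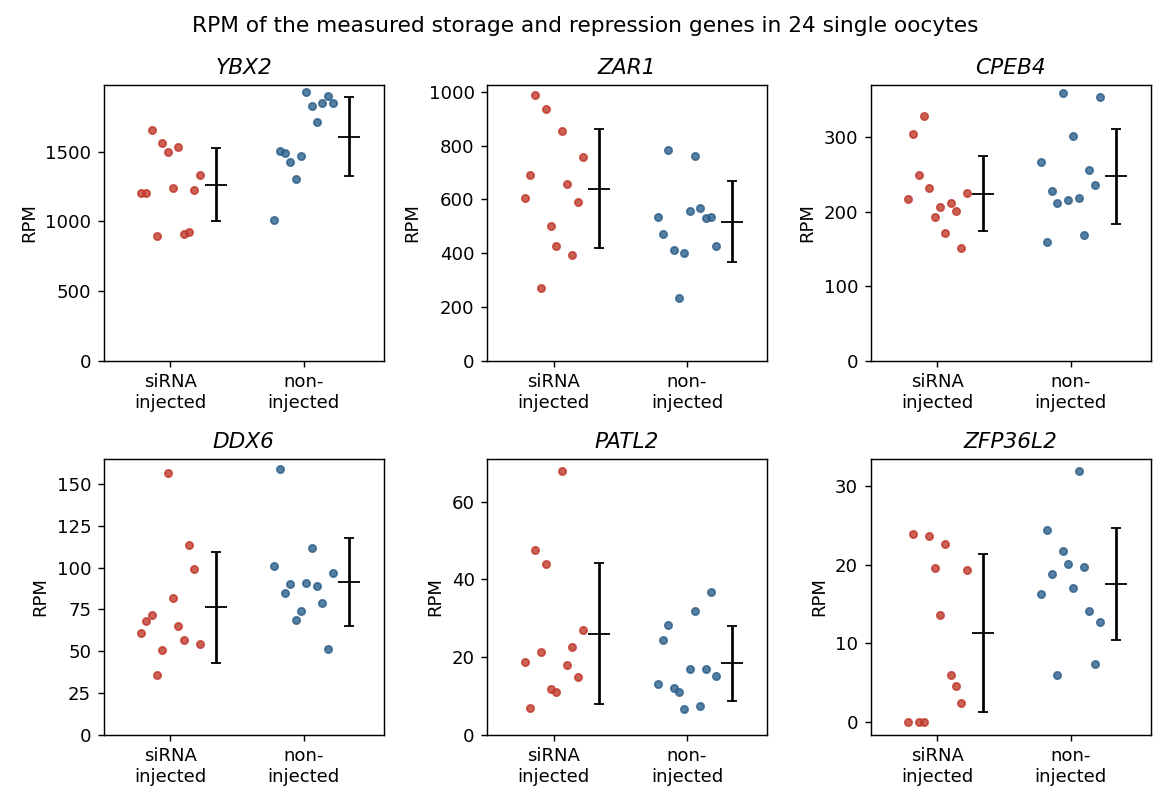
RPM (linear axes) of the 6 measured members, 1 point per oocyte, siRNA injected left and non-injected right, with the mean and SD of 12 oocytes beside each group. The *YBX2* points of injected oocytes reach 1656 RPM, and 6 non-injected oocytes lie above that; the groups overlap in every panel.

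*YBX2*, the germ cell Y-box protein that packages stored mRNA, had the smallest p-value of the set. Its lowest, median and highest values were 893, 1231 and 1656 RPM in injected oocytes, against 1009, 1609.5 and 1926 RPM in non-injected oocytes. The groups overlapped, but 11 of 12 injected oocytes were below the non-injected median and 6 of 12 non-injected oocytes were above the highest injected one. The share of all genes with such counts was not computed, and for *CNOT7*, taken up below, these counts were 12 and 7. *YBX2* averaged 1264 ± 263 RPM in injected oocytes, against 1605 ± 284 RPM in non-injected oocytes (SD, n = 12 each), a log2 fold change of -0.35 (standard error 0.12, 95% confidence interval -0.59 to -0.11), or 0.784 times the non-injected level. The adjusted p was 0.193 from limma, 0.125 from edgeR and 0.0418 from DESeq2 (log2 fold change -0.33, standard error 0.10), so the call depended on the test. DESeq2 is the tool that the study's methods name, and here it was run on UMI counts recovered from RPM. This run called 108 of 3774 genes, and its *YBX2* call is not a result taken from the study. The *YBX2* values rested on 199 to 507 UMIs per injected and 231 to 730 UMIs per non-injected oocyte.

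As a share of the summed RPM of the 6 measured members, *YBX2* made up 48.8% to 62.9% in injected (median 56.1%) and 52.0% to 68.7% in non-injected oocytes (median 66.2%). The sum itself was 2241 ± 459 RPM in injected oocytes, against 2497 ± 359 RPM in non-injected oocytes (SD, n = 12 each). These are descriptions with no test.

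*ZFP36L2*, whose product shortens the tails of AU-rich mRNAs and is needed in mouse oocytes for the decay of such transcripts, lay near the limit of detection. It was above 0 in 9 of 12 injected and 12 of 12 non-injected oocytes, and the groups summed to 41 UMIs and 67 UMIs. Its lowest, median and highest values were 0, 9.79 and 23.9 RPM in injected oocytes, against 6.002, 17.9 and 31.8 RPM in non-injected oocytes. *ZFP36L2* averaged 11.3 ± 10.1 RPM in injected oocytes, against 17.5 ± 7.12 RPM in non-injected oocytes (SD, n = 12 each), a log2 fold change of -0.71 (standard error 0.31, 95% confidence interval -1.35 to -0.07, adjusted p = 0.335 from limma). At a mean of 17.5 RPM the 3 injected oocytes at 0 (numbers 1, 3 and 4) would have held 3.73, 3.67 and 4.91 UMIs. A count of 0 allows up to 3 UMIs, which is 14.1, 14.3 and 10.7 RPM there and covers counting error only. These few UMIs limit how firmly the difference can be read, and neither edgeR nor DESeq2 gave the gene an adjusted p. The log2 fold change from DESeq2 was -0.66 with a standard error of 0.39.

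*DDX6*, a DEAD-box helicase that represses translation and promotes decapping, had overlapping ranges in the groups. Its lowest, median and highest values were 35.7, 66.8 and 157 RPM in injected oocytes, against 51.5, 89.7 and 159 RPM in non-injected oocytes. Both groups thus covered nearly the same range, although 9 of 12 injected oocytes were below the non-injected median. *DDX6* averaged 76.3 ± 33.1 RPM in injected oocytes, against 91.4 ± 26.5 RPM in non-injected oocytes (SD, n = 12 each), a log2 fold change of -0.30 (95% confidence interval -0.67 to 0.08, adjusted p = 0.535 from limma).

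*CPEB4*, which in Xenopus oocytes takes over from CPEB1 late in meiosis, had closely overlapping ranges. Its lowest, median and highest values were 152, 214 and 328 RPM in injected oocytes, against 159, 232 and 359 RPM in non-injected oocytes. As for *DDX6*, 9 of 12 injected oocytes were below the non-injected median. *CPEB4* averaged 224 ± 50.4 RPM in injected oocytes, against 248 ± 63.6 RPM in non-injected oocytes (SD, n = 12 each), a log2 fold change of -0.13 (95% confidence interval -0.41 to 0.15, adjusted p = 0.745 from limma). It was -0.08 without any 1 of injected oocyte 11 and non-injected oocytes 5 and 12.

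*ZAR1* and *PATL2* had positive log2 fold changes, neither of them past the test. *ZAR1* had a lowest, median and highest value of 269.9, 631 and 988 RPM in injected oocytes, against 234, 533 and 782 RPM in non-injected oocytes. In 3 injected oocytes it was above the highest non-injected one. *ZAR1* averaged 639 ± 221 RPM in injected oocytes, against 517 ± 151 RPM in non-injected oocytes (SD, n = 12 each), a log2 fold change of 0.27 (95% confidence interval -0.08 to 0.63, adjusted p = 0.544 from limma), and 0.18 without non-injected oocyte 5. *PATL2*, an oocyte homologue of the Pat1 decapping factor, had 6.82, 20.1 and 68.1 RPM as its lowest, median and highest value in injected oocytes, against 6.70, 16.0 and 36.8 RPM in non-injected oocytes. In 8 of 12 injected oocytes *PATL2* was above the non-injected median. Its highest value, in injected oocyte 8, was 24 UMIs, and in 1 injected and 2 non-injected oocytes it rested on 2 UMIs. *PATL2* averaged 26.0 ± 18.2 RPM in injected oocytes, against 18.4 ± 9.77 RPM in non-injected oocytes (SD, n = 12 each), a log2 fold change of 0.32 (95% confidence interval -0.23 to 0.88, adjusted p = 0.675 from limma). Without injected oocyte 8 it was 0.19.

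**Figure D2:**
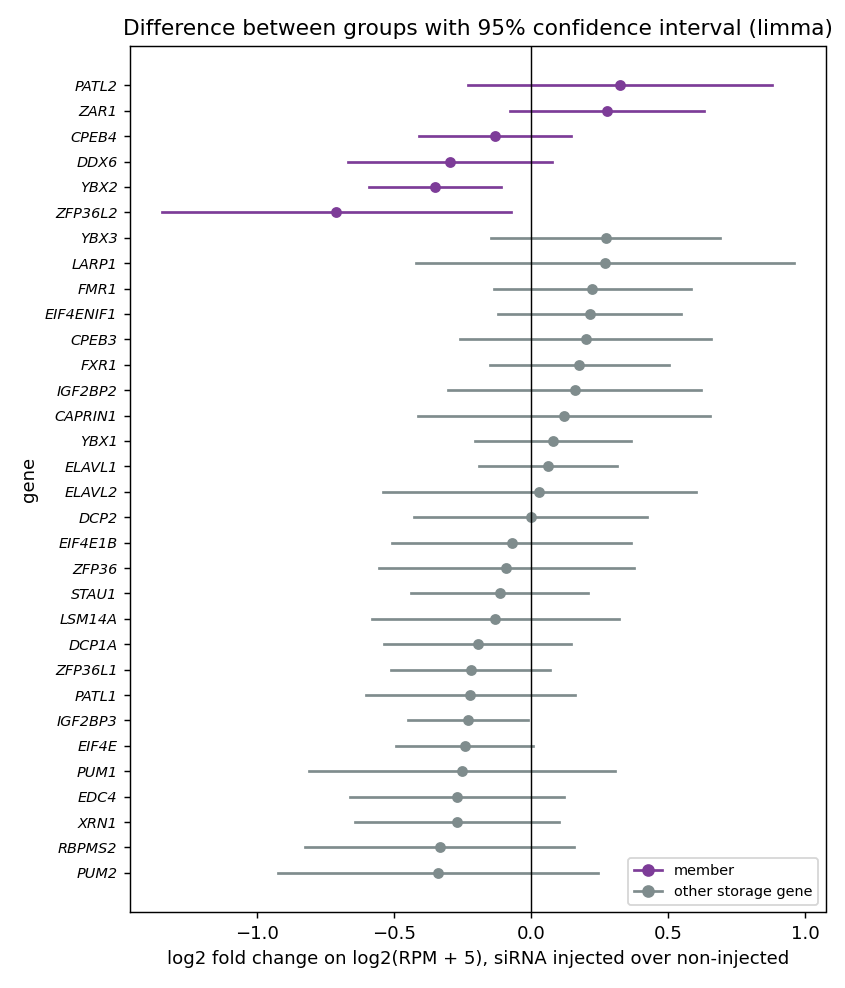
Log2 fold change of siRNA injected over non-injected oocytes on the log2(RPM + 5) scale (x axis) with the 95% confidence interval from limma, for the 6 measured members (purple, top) and 26 other storage genes (grey). The intervals of *YBX2*, *ZFP36L2* and *IGF2BP3* lie wholly below 0 before adjustment, and no gene shown passed at an adjusted p under 0.05.

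The members differed in how far oocytes of 1 group spread. For *YBX2* the coefficient of variation of RPM was 20.8% over injected and 17.7% over non-injected oocytes, where counting of UMIs alone would give about 5.33% and 4.85%. *ZAR1* spread by 34.6% and 29.2% in these groups against 7.50% and 8.54% from counting, and *CPEB4* by 22.5% and 25.7% against 12.7% and 12.3%. The coefficient was thus higher for *ZAR1* than for *CPEB4* in both groups, although *ZAR1* was counted with more UMIs. The 2 genes were closer in non-injected oocytes, and their difference in spread was not tested. Within a group the highest *ZAR1* value was 3.66 times the lowest among injected and 3.35 times among non-injected oocytes. For *CPEB4* it was 2.16 and 2.26 times. *DDX6* spread by 43.4% and 29.0% against 21.7% and 20.3% from counting. For *PATL2* the spread was 70.0% and 53.2% against 37.2% and 45.3%, and for *ZFP36L2* 89.0% and 40.7% against 56.4% and 46.4%, so that the non-injected *ZFP36L2* values spread no more than counting gives.

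**Figure D3:**
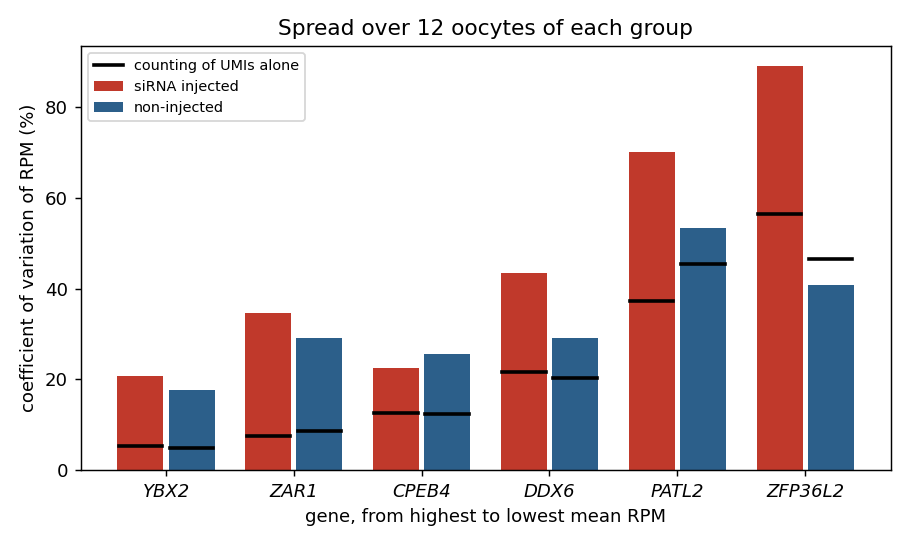
Coefficient of variation of RPM (percent, bars from 0) over 12 siRNA injected (red) and 12 non-injected (blue) oocytes for each measured member, with a black line at the value that counting of UMIs alone would give. *YBX2* and *ZAR1* stand furthest above their lines in proportion, and the non-injected *ZFP36L2* bar (40.7%) is below its line (46.4%).

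From oocyte to oocyte, some pairs of members varied together in part. Of the 15 pairs, *ZAR1* and *PATL2* had the highest correlation on log2(RPM + 5) over the 24 oocytes (Pearson r = 0.55, Spearman rho = 0.56, r = 0.65 without the 2 oocytes farthest from the *ZAR1* median). *CPEB4* and *DDX6* had the lowest (r = -0.38, rho = -0.36, r = -0.49 without the 2 farthest in *CPEB4*). *YBX2* and *ZAR1* were at r = 0.31 and *YBX2* and *PATL2* at r = 0.21 (0.24 and 0.26 without the 2 farthest in *YBX2*). When deviations from the group means were taken, these pairs were at r = 0.55 and r = 0.40, and *ZAR1* and *PATL2* at r = 0.52. Against the UMI total of the oocyte, *YBX2*, *ZAR1* and *CPEB4* had r = 0.07, 0.07 and -0.01, *DDX6* 0.15, *PATL2* -0.21 and *ZFP36L2* 0.36. *YBX2* and *ZFP36L2* were at r = 0.41, at 0.25 in deviations from the group means, and at 0.23 without the 2 farthest in *YBX2*. *DDX6* and *ZFP36L2* were at r = 0.34, at 0.24 in such deviations, and at 0.10 without the 2 farthest in *DDX6*. All pairs share their libraries and depth, so these values describe the 24 oocytes only.

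Among 6187 tested genes with a symbol, those most like *YBX2* over the 24 oocytes by Pearson correlation were *TMEM35B*, *PKM* (pyruvate kinase) and *HNRNPH3* (an RNA-binding protein), each at r = 0.78. Without the 2 oocytes farthest from the *YBX2* median they were at 0.66, 0.71 and 0.66. Those most like *ZAR1* were *NAPEPLD* (r = 0.80), *PRDX2*, a peroxiredoxin (r = 0.77), and *ERMP1* (r = 0.76). Without the 2 oocytes farthest from the *ZAR1* median they were at 0.72, 0.77 and 0.60. Those most like *CPEB4* were *TCF4*, a transcription factor (r = 0.78), *CEP135*, a centriole protein (r = 0.71), and *MAFG* (r = 0.70). Without the 2 oocytes farthest from the *CPEB4* median they were at 0.69, 0.72 and 0.67. Of the 9, *NAPEPLD* and *TCF4* were among the 3 highest also by Spearman correlation and by deviations from the group means. As the highest of 6187 values these are descriptions, and the genes share libraries and depth with the members.

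Most members have relatives that the oocyte expressed as well. *YBX1*, a Y-box gene of somatic cells as well, averaged 1335 ± 321 RPM in injected oocytes, against 1273 ± 334 RPM in non-injected oocytes (SD, n = 12 each), close to *YBX2*, whereas *YBX3* averaged 38.6 RPM over the 24 oocytes. *YBX2* took 37.4% to 59.6% of the RPM of the Y-box genes in injected oocytes (median 47.7%) and 39.5% to 71.9% in non-injected oocytes (median 57.6%). The log2 fold change of *YBX1* was 0.08 (95% confidence interval -0.20 to 0.37, adjusted p = 0.866 from limma), and whether it differed from that of *YBX2* was not tested.

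*CPEB3* was at a mean of 219 RPM, beside 236 RPM for *CPEB4*, and *CPEB4* took 26.7% to 70.7% of their sum in injected and 33.5% to 74.5% in non-injected oocytes. *PATL1*, the widely expressed Pat1 homologue, averaged 66.6 RPM against 22.2 RPM for *PATL2*. *PATL2* held a median of 25.7% of that pair in injected and 16.6% in non-injected oocytes. *ZFP36L1* averaged 1209 ± 316 RPM in injected oocytes, against 1401 ± 304 RPM in non-injected oocytes (SD, n = 12 each), with *ZFP36* at a mean of 67.4 RPM. *ZFP36L2* thereby held at most 2.98% of the RPM of this family in injected and 3.15% in non-injected oocytes.

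**Figure D4:**
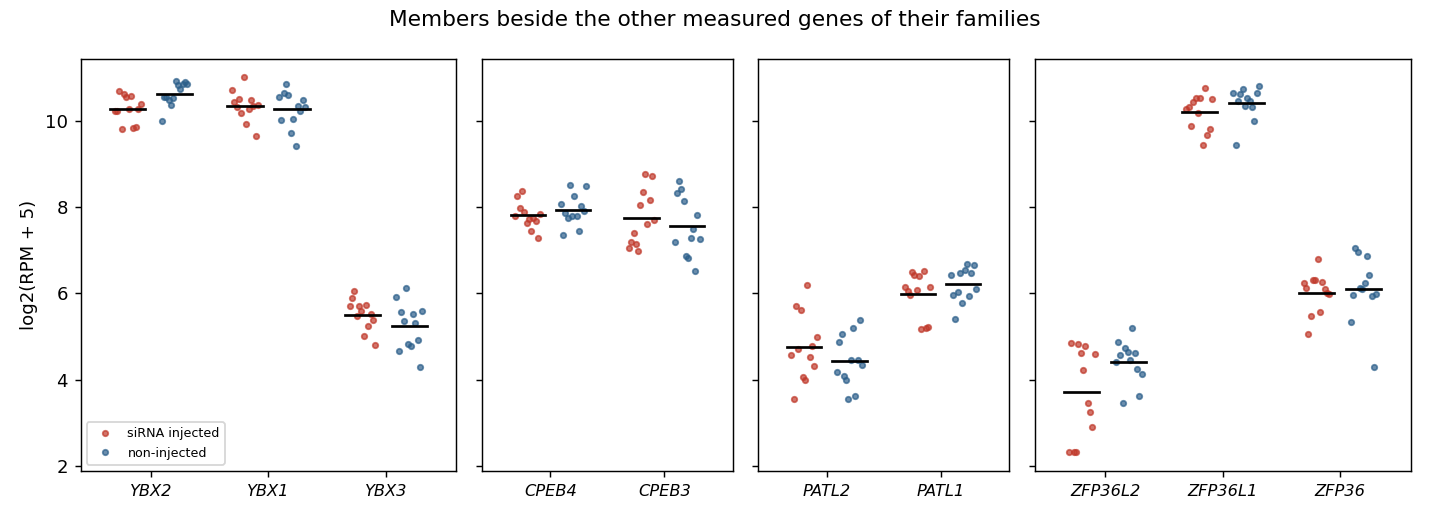
Expression on the log2(RPM + 5) scale of members and the other measured genes of their families, 1 point per oocyte with a line at the group mean, siRNA injected (red) left of non-injected (blue). By the group means, *YBX2* lies close to *YBX1*, *CPEB4* close to *CPEB3*, *PATL2* below *PATL1*, and *ZFP36L2* far below *ZFP36L1*; the 3 points at the bottom are injected oocytes with no *ZFP36L2* UMI.

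Of 38 further genes of mRNA storage, repression and decapping, 32 matched a row and 26 were expressed highly enough to be tested. None passed limma, edgeR (19 fitted) or DESeq2 (17 given an adjusted p). Over all genes these tools called 0.221%, 1.17% and 2.86%. At an unadjusted p under 0.05 there was 1 of 26, lower in injected oocytes, against 12.4% of all tested genes (5.72% lower). The log2 fold change was positive for 11 and negative for 15, with a median of -0.08 and a range of -0.34 to 0.27. The highest of them were *FMR1*, which represses translation on polysomes, at a mean of 2024 RPM, *IGF2BP3*, an mRNA-stabilising protein, at 1971 RPM, *ZFP36L1* at 1305 RPM and *YBX1* at 1304 RPM, so that *FMR1* and *IGF2BP3* exceeded every measured member. The smallest p-values belonged to *IGF2BP3* (log2 fold change -0.23, adjusted p = 0.369 from limma), *EIF4E*, the cap-binding protein (log2 fold change -0.24, adjusted p = 0.42), and *ZFP36L1* (log2 fold change -0.22, adjusted p = 0.553). *IGF2BP3* averaged 1815 ± 331 RPM in injected oocytes, against 2128 ± 370.0 RPM in non-injected oocytes (SD, n = 12 each).

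mRNAs that CPEB1, DAZL or deadenylation are known to hold back in mouse or Xenopus oocytes were looked at beside the proteins. Of 14 such genes, 13 were tested and none passed limma, edgeR (12 fitted) or DESeq2 (12 given an adjusted p), where 0.221%, 1.17% and 2.86% of all genes did. At an unadjusted p under 0.05 there were 3 of 13, against 12.4% of all tested genes. These were *BUB1B*, a spindle checkpoint kinase (log2 fold change -0.40, adjusted p = 0.179 from limma), *MOS*, the kinase of MII arrest (log2 fold change 0.38, adjusted p = 0.195), and *CNOT7*, a deadenylase (log2 fold change -0.24, adjusted p = 0.307). *BUB1B* averaged 195 ± 44.0 RPM in injected oocytes, against 256 ± 49.2 RPM in non-injected oocytes (SD, n = 12 each). *MOS* averaged 588 ± 138 RPM in injected oocytes, against 448 ± 94.0 RPM in non-injected oocytes (SD, n = 12 each). In 10 of 12 injected oocytes it was above the non-injected median. *CNOT7* averaged 530.2 ± 74.6 RPM in injected oocytes, against 623 ± 63.9 RPM in non-injected oocytes (SD, n = 12 each). All 12 injected oocytes were below its non-injected median. These genes were picked by their p-values here, and the share of all genes with such counts was not computed. The median log2 fold change of the 13 genes was -0.003, with 6 positive and 7 negative. *DCP1A* and *DCP2*, subunits of the decapping enzyme, stand in both lists.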

How the data were processed

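Single oocyte RNA was sequenced with CEL-seq2. As the study's methods state, the authors aligned reads to cDNA sequences, collapsed reads sharing gene and UMI, and deposited RPM values in 24 columns, 0 of which went unused. UMD3.1 is the build in the submitters' processing notes. The name of the aligner was not given in the sources used here. Groups come from the genotype labels. Whole UMI counts were regained from RPM by inverting a saturation correction (capacity 4048), with 100% of values whole within 0.001.

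Groups were compared with limma 3.58.1 (lmFit, then eBayes with a mean-variance trend, R 4.3.3) on log2(RPM + 5). Genes needed a mean RPM of 10 or more, p-values were adjusted by Benjamini-Hochberg over all 7256, and calls needed an adjusted p below 0.05 together with a change of more than 1.2 times. On this scale the fold changes of low genes are understated. Alternatives were edgeR 4.0.16 and DESeq2 1.42.0 on the regained UMIs, other pseudocounts, filters, scalings and variance models, depth as a covariate, and leaving out oocytes. The fits were tested on simulated data. Descriptions were computed in Python 3.11.15. The counting spread is the square root of the mean RPM worth of 1 UMI over the mean RPM.

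Named genes were all members, the 4 highest and the 3 of smallest p among the other storage genes, the 3 of smallest p among the held mRNAs, and the 3 most correlated with each of the 3 highest members. The family relatives *YBX3*, *CPEB3*, *PATL1* and *ZFP36*, the marker genes, and *DCP1A* and *DCP2* were named outside this rule, after their values were seen. Members and lists were chosen with earlier results of these data known.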

Additional observations from a re-analysis of the deposited data

How the results depend on the processing

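Over the alternatives, the number of measured members called stayed at 0, except that DESeq2 on recovered UMIs called 1, *YBX2*. The log2 fold changes of the 6 members kept their sign under each alternative that gave a value, which edgeR and the 30 RPM filter did not for *PATL2* and *ZFP36L2*. That of *YBX2* ranged from -0.41 to -0.31 with adjusted p from 0.0418 to 0.376, and the cause of its call by DESeq2 was not tested. The range was -1.31 to -0.49 for *ZFP36L2* (-1.31 with a pseudocount of 1 RPM), 0.19 to 0.52 for *PATL2* (0.52 with DESeq2), 0.18 to 0.38 for *ZAR1*, -0.18 to -0.08 for *CPEB4* and -0.39 to -0.21 for *DDX6*. Leaving out single oocytes called 0 members and 0 other storage genes each time. The calls over all genes moved from 16 to 9 with a pseudocount of 1 RPM, 0 with no filter on low values (1332 genes at an unadjusted p under 0.05), 52 with a filter at 30 RPM, 6 with TMM, 34 with robust eBayes, 31 with a depth covariate, 50 with edgeR, 108 with DESeq2 and 82 at an adjusted p under 0.1. With a pseudocount of 1 RPM 2 were higher and 7 lower, against 6 and 10. Without 1 oocyte they ranged from 0 to 37, changing by over 1.5 times without injected oocytes 1, 3, 4, 6, 7, 8, 9, 10 or 12 and non-injected oocytes 1, 3, 6, 8, 10, 11 or 12. An alternative chosen after seeing the data left out injected oocyte 8 and non-injected oocyte 11 together, which gave 0 calls over all genes (800 at an unadjusted p under 0.05) and 0 members. Replicate numbers are shared by the groups, but samples of the same number deviated together with a correlation over 0.1 in only 2 of 12 pairs (range -0.12 to 0.17), and 1 oocyte correlated best with its own number. With the replicate block 11 genes (6 higher, 5 lower) and 0 members were called (*YBX2* log2 fold change -0.35, adjusted p = 0.234). In likeness to *YBX2*, *TMEM35B*, *PKM* and *HNRNPH3* ranked 22, 7 and 6 by Spearman correlation and 21, 6 and 25 by deviations from the group means. In likeness to *ZAR1*, *PRDX2* and *ERMP1* ranked 4 and 12 by Spearman correlation and 1 and 5 by deviations. In likeness to *CPEB4*, *CEP135* and *MAFG* ranked 11 and 3 by Spearman correlation and 3 and 6 by deviations. Depth limited *PATL2* and *ZFP36L2*, which held 2 UMIs or fewer in 3 and 8 of 24 oocytes.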

Other observations

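The ratio of *YBX2* to *ZAR1*, the highest members by RPM, was looked at after their values were seen and carries no test. It was 1.38 to 3.31 in injected oocytes (median 1.89) and 1.89 to 5.59 in non-injected oocytes (median 3.47). All 12 injected oocytes were below the non-injected median, and 7 of 12 non-injected oocytes were above the highest injected one. *YBX2* and *ZAR1* had log2 fold changes of opposite sign (-0.35 and 0.27), which add up in their ratio. No background over other gene pairs was computed.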
